A study of Equus caballus with 13 samples.

Results

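The genes described here code for enzymes and readers that write, erase or bind chemical marks on chromatin. They were chosen by symbol, not by any measured value: lysine demethylases (KDM), methyltransferases (KMT, SETD and EZH), deacetylases (HDAC and SIRT), acetyltransferases (KAT), bromodomain proteins (BRD), chromodomain helicases (CHD), and the DNA methyltransferases and TET dioxygenases. The choice was made with earlier results of these data known. Of 10974 genes listed in both RNA kinetics tables, 80 matched, after KDM5D was left out by the rule. They comprised 15 KDM, 18 KMT, SETD or EZH, 11 HDAC, 6 SIRT, 7 KAT, 8 BRD, 9 CHD and 6 DNMT or TET genes. EZH2 was listed only in the table of male and female cells and is therefore not among the 80.

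Histone tails carry methyl and acetyl groups that are added by methyltransferases and acetyltransferases and taken off by demethylases and deacetylases. Bromodomain proteins bind acetylated lysines, CHD proteins move nucleosomes with energy from ATP, and DNMT and TET enzymes add methyl groups to cytosine and oxidise them. In cartilage, several of these enzymes are studied for their part in holding the chondrocyte state and in the matrix gene expression of aged or osteoarthritic tissue. The SETD symbols also cover enzymes that act on other proteins, such as SETD3, which methylates actin.

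The cells were wild-type (WT) horse chondrocytes, which lay down the matrix of cartilage, cultured for 2 days and labelled with 4-thiouridine (4sU) for 4 h in all groups. Old females gave 5 of the 13 samples, young females 5 and young males 3. The samples spanned 12 batches, of which only batch 10 held samples of both sexes (1 young female and 1 young male), so batch and group cannot be told apart. The ages in years and the joint were not given in the sources used here, nor was it stated that samples of a group came from separate animals.

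One table compared old with young female cells and the other young male with young female cells, both by RNA synthesis rate and RNA half-life. Each value was the authors' single estimate for a group, so no spread, error or test between samples could be computed, and the depth behind the values is unknown. A difference is therefore given as a log2 ratio and is called where it reached 1 in either direction, a 2-fold difference. Half-lives were read as hours. How well values far below or far above the 4 h of labelling are resolved was not tested. Synthesis rates were in arbitrary units (a.u.), and since scaling for transcript length was not given, no gene is ranked against another by synthesis or level in the text, only compared between groups. Sums over markers and a filter on the upper 75% of genes by synthesis do pool these unscaled values. The implied level, synthesis rate times half-life over the natural logarithm of 2, assumes a steady state.

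The young female cells entered both comparisons, so the age and sex ratios share those samples, and their pair of estimates shows how far a value moved between tables. The 2 young female half-lives lay within 5% of each other for 73 of the 80 genes, and the synthesis rate of the second table was at a median of 0.953 times that of the first. CHD5 moved most, by 0.47 on the log2 scale for half-life and 0.53 for synthesis. The age ratio was larger than the gene's own move between tables for 74 of 80 genes in half-life, 63 in synthesis and 53 in level, and the sex ratio for 76, 75 and 65. Both young female estimates came from the same samples, so this move holds no spread between samples. A ratio larger than it is therefore not shown to exceed the noise between replicates. All 7 chondrocyte markers looked up were listed, with a summed implied level of 0.904 times the young female one in old cells and 2.46 times in male cells. The old sum combined a COMP log2 level ratio of 0.83 and MATN3 at 0.24 with ratios from -0.48 (ACAN) to -1.01 (HAPLN1) for the other 5 markers. The 4 fibroblast-like markers stood at 0.452 times in old and 2.64 times in male cells. COL3A1, with a log2 level ratio of 1.08 in male cells, made up most of that sum, while COL1A1 and COL1A2 were at 4.19 and 3.40. Of the macrophage, endothelial and muscle markers only CD14, VWF and DES were listed, at 0.750 to 1.20 times. The part of these shifts in the results below was not tested, and in bulk RNA fewer cells of a type and less RNA per cell cannot be told apart.

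Transcripts of the chromatin enzymes had short half-lives. In young female cells their median was 1.68 h (interquartile range 1.31 to 3.71 h), against 3.64 h for all genes. In old female cells it was 1.61 h against 3.43 h, and in the sex table it was 1.73 h against 3.74 h in young female and 1.71 h against 4.63 h in male cells. A half-life under 2 h was found for 49 of 80 (61.2%) in young female cells against 29.0% of all genes, and for 48 (60.0%) in male cells against 24.1%. The short lifetime was not shared by every family, as the plot of half-lives by family shows. Of the 80, 18 (22.5%) had a half-life over 4 h in young female cells, against 46.7% of all genes, and 59 (73.8%) lay below the all-gene median.

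**Figure D1:**
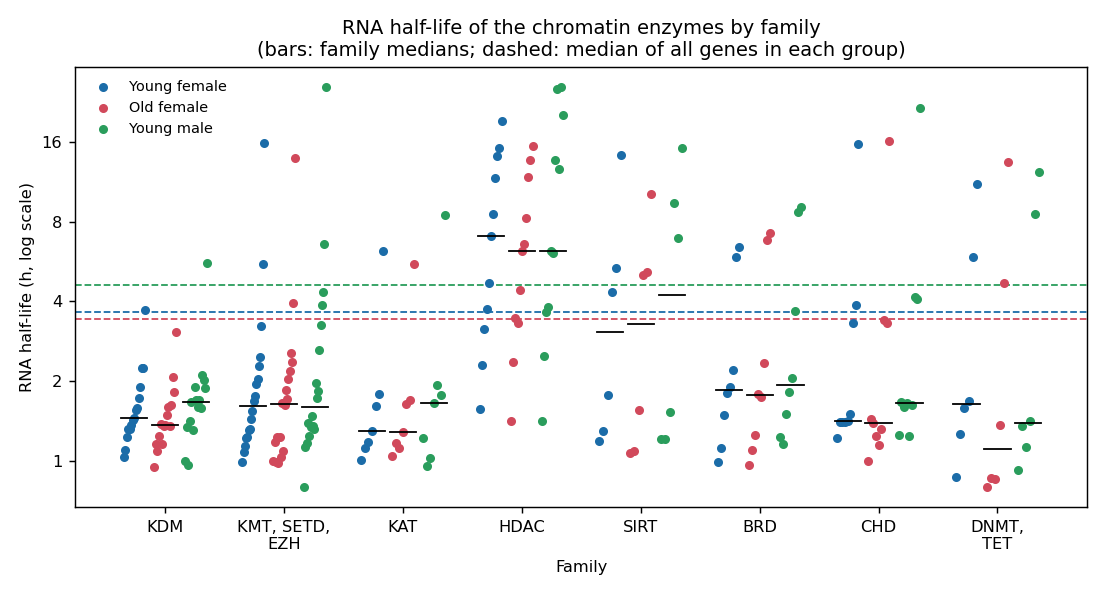
Half-life in hours (log axis) of each of the 80 transcripts by family, for young female, old female and young male cells, each point 1 gene, with the young female values taken from the age table, bars for family medians and dashed lines for the all-gene median of each group. Most KDM, KMT, KAT, BRD, CHD and TET transcripts sit below the young female all-gene median of 3.64 h, and 5 of the 11 HDAC transcripts lie above 8 h in young female cells.

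In young female cells the acetyltransferases had the lowest family median, 1.30 h, followed by the CHD remodellers at 1.41 h and the demethylases at 1.45 h. The medians of the lysine methyltransferases, the DNMT and TET enzymes and the bromodomain proteins were 1.61, 1.63 and 1.85 h. In old and male cells the DNMT and TET enzymes had the lowest, 1.11 and 1.39 h, with the acetyltransferases at 1.29 and 1.65 h. Sirtuins, at 3.06 h, and above all the HDAC deacetylases, at 7.10 h, were longer-lived. The HDAC median was 6.18 h in old and 6.19 h in male cells. Transcripts for enzymes that add acetyl groups thus had a shorter median half-life than transcripts for the HDAC enzymes that remove them in each of the 3 groups.

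In old against young female cells the 80 genes differed little. A half-life ratio of 2-fold was reached by 0 of 80 in either direction, where 1.47% of all 11056 genes were longer-lived by that much and 2.06% shorter-lived. One of 80 had a 2-fold higher synthesis rate, TET3, against 4.59% of all genes, and 0 of 80 a 2-fold lower one, against 2.92%. The implied level differed 2-fold for 0 of 80, against 2.13% of all genes higher and 1.99% lower. Of all genes, 36.5% were longer-lived in old cells. A higher synthesis rate came with a shorter half-life for 46.9% of all genes and with a longer one for 13.1%. The median half-life ratio of the 80 was -0.11 (57 of 80 shorter in old cells) against -0.08 for all genes, that of synthesis 0.17 (65 of 80 higher) against 0.08, and that of the level 0.04 against 0.00. For a comparison with genes of like half-life, genes of both comparisons were split into 10 bins by half-life in the group outside the ratio. That group was young male for the age ratios and old female for the sex ratios. Each ratio was then centred on the median of its bin. Against genes of like half-life in this sense the half-life and synthesis medians were -0.0061 and 0.050. The combination of a shorter half-life and a higher synthesis rate was found for 54 of 80 (67.5%), against 46.9% of all genes.

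At a log2 ratio of 0.5, 9 of 80 (11.2%) had a higher synthesis rate in old cells, against 14.8% of all genes. They were TET3, KDM1B, SIRT2, HDAC7, HDAC11, CHD2, SETD4, SIRT1 and SETD7, and for 5 of the 9 (55.6%) the implied level differed by less than 0.5, against 53.5% of all genes past 0.5 in synthesis. A synthesis rate lower by as much was found for 0 of 80, against 8.18%. Half-life was longer by 0.5 for 0 of 80, against 4.47%, and shorter for 2 of 80, TET1 and TET3, against 8.88%. The implied level was higher by 0.5 for 5 (TET3, HDAC7, CHD5, KDM1B and SETD4), against 8.19%, and lower for TET1 alone, against 7.37%. Each of these shares of the 80 was below that of all genes.

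The sex comparison had wider ratios, beside a shift of the whole table. Over all 11249 genes the median log2 ratio of male over female cells was 0.27 for half-life and -0.28 for synthesis, and it was 0.01 for the implied level. The level was higher in male cells for 50.5% of them. Of all genes, 62.6% had a longer half-life with a lower synthesis rate, 14.6% longer with a higher rate and 8.33% shorter with a lower rate. The 80 genes had medians of 0.07 (57 of 80 longer in male cells), -0.35 (60 of 80 lower) and -0.14 (50 of 80 lower). Relative to the all-gene medians they were -0.20, -0.07 and -0.14. Set against genes of like half-life, the medians were -0.02, 0.02 and 0.01. A longer half-life with a lower synthesis rate was found for 51 of 80 (63.8%), close to the 62.6% of all genes.

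Male cells had a half-life 2-fold longer for 2 of 80, HDAC8 and SIRT5, against 5.62% of all genes, and 2-fold shorter for 0 of 80, against 1.96%. Within the upper 75% of genes by synthesis, 0 were 2-fold longer. Synthesis was 2-fold lower for 4 of 80 (5.00%), KDM7A, HDAC8, KDM3B and BRD8, against 8.37%, and 2-fold higher for 0 of 80, against 3.78%. The implied level differed 2-fold for 0 of 80, against 3.00% higher and 1.61% lower. After subtraction of the all-gene median, 0 of 80 reached 2-fold in half-life or synthesis. After centring on genes of like half-life, HDAC8 (-1.04) and KMT5C (1.06) reached it in synthesis and none did in half-life.

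At a log2 ratio of 0.5, half-life was longer in male cells for 11 of 80 (13.8%), against 27.4% of all genes, and shorter for TET1 alone, against 4.40%. That balance was not kept: after subtraction of the all-gene median 2 were longer and 7 shorter. Against genes of like half-life 3 were longer and 3 shorter. Synthesis was lower by 0.5 for 25 of 80 (31.2%), near the 32.1% of all genes, and higher for 5 (HDAC10, HDAC6, KDM4B, KMT5C and SIRT6), against 8.96%. After subtraction of the all-gene median 10 were lower and 12 higher in synthesis. Against genes of like half-life 6 were lower and 14 higher. The implied level was lower by 0.5 for 10 of 80 (12.5%), near the 12.0% of all genes. These 10 were KDM7A, CHD7, HDAC9, BRD8, KDM4C, KDM3B, KAT14, KMT2A, KDM3A and KAT6A. It was higher for HDAC10 and SIRT5, against 13.0% of all genes. Of the 30 genes past 0.5 in synthesis, 27 had a half-life ratio of the opposite sign and 19 (63.3%) had an implied level within 0.5. Over all genes past 0.5 in synthesis, 89.8% had opposite signs and 61.7% a level within 0.5, much the same shares, as the scatter of both ratios shows.

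**Figure D2:**
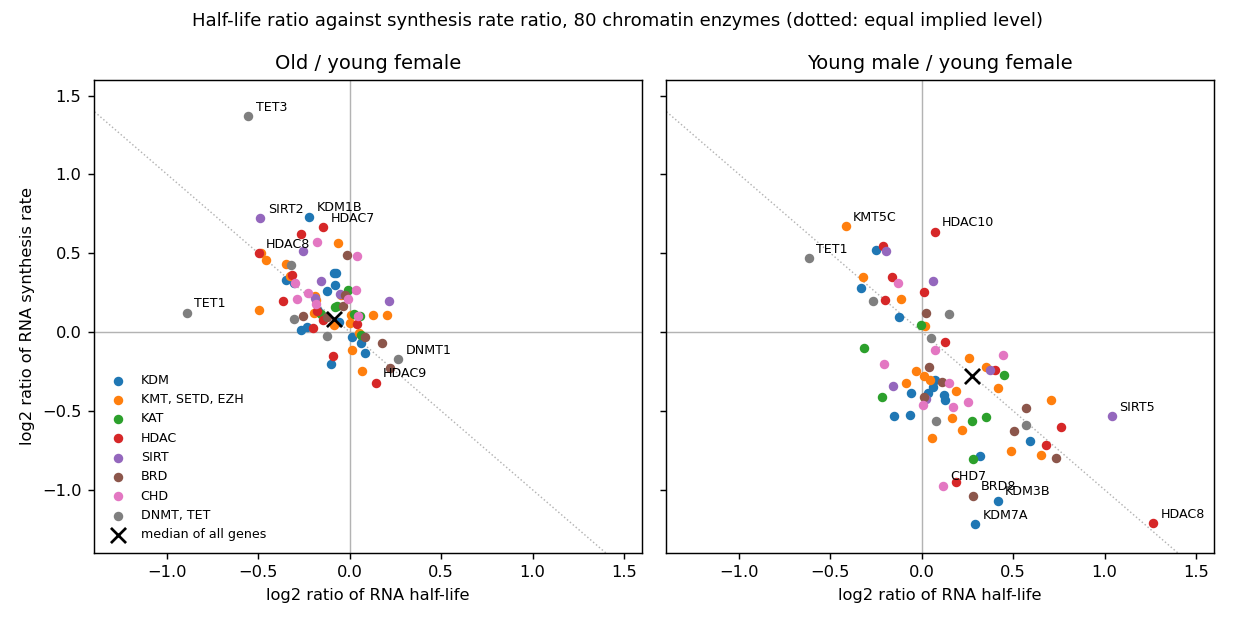
Log2 half-life ratio (x axis) against log2 synthesis ratio (y axis) of the 80 genes, each point 1 gene coloured by family and the cross the median of all genes, for old over young female (left) and young male over young female cells (right). Along the dotted diagonal the implied level is equal in both groups; TET3 at -0.56 and 1.37 stands apart in the left plot and HDAC8 at 1.27 and -1.21 in the right.

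The points of that scatter lie along the diagonal on which half-life and synthesis offset each other. Across the 80 genes Spearman's rho between both ratios was -0.55 for age and -0.67 for sex, against -0.53 and -0.55 across all genes. Both quantities are estimated from the same libraries and genes are not independent, so these values only describe the tables.

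Among the lysine methyltransferases, the KMT2 and SETD1 enzymes methylate lysine 4 of histone H3 at promoters and enhancers. The 6 listed had a median half-life of 1.49 h in young female, 1.43 h in old and 1.53 h in male cells. The shortest-lived, SETD1B, had half-lives of 0.993 h in young female and 1.00 h in old cells, and of 0.992 h in young female and 0.795 h in male cells. Its paralogue SETD1A was 2.06 times as long-lived in young female, 2.04 times in old and 3.29 times in male cells. KMT2A, the MLL1 enzyme, had a synthesis rate of 3248 a.u. in young female and 3495 a.u. in old cells, and of 3084 a.u. in young female and 1932 a.u. in male cells. Its half-life stayed between 1.08 and 1.18 h in these estimates, so that its level ratio in male cells was -0.62, close to its synthesis ratio of -0.67. KMT2D, which marks enhancers, was among the lowest synthesis ratios in old cells, at -0.25 (4206 to 3547 a.u.).

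KMT5B and KMT5C add further methyl groups to lysine 20 of histone H4. KMT5C half-life was 1.54 h in young female and 1.09 h in old cells (-0.50), and 1.76 h in young female and 1.32 h in male cells (-0.42). Its synthesis rate was 95.0 and 105 a.u. in the first pair and 79.5 and 127 a.u. in the second, the highest sex ratio of synthesis among the 80 at 0.67. The young female estimates of KMT5C themselves differed between tables by more than those of most of the 80 genes. With that of the age table its sex ratios were -0.23 for half-life and 0.41 for synthesis. The synthesis ratio was then below that of HDAC10, at 0.57. EZH1, a catalytic subunit of the Polycomb complex PRC2, had a half-life of 1.44 h in young female and 1.66 h in old cells, with level ratios of 0.31 for age and -0.41 for sex.

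The smaller SETD enzymes included both short- and long-lived transcripts. SETD9 had a half-life of 15.9 h in young female, 13.9 h in old and 25.9 h in male cells, the last being the longest male value of the 80. SETD7, a lysine methyltransferase of histone H3 and other proteins, had a half-life of 5.52 h in young female and 3.94 h in old cells (-0.49), beside a synthesis rate of 1453 and 2056 a.u. (0.50). Its implied level ratio was 0.01, so its old and young levels were nearly equal. SETD4 synthesis was 99.1 a.u. in young female and 147 a.u. in old cells (0.57), and 93.0 a.u. in young female and 55.2 a.u. in male cells (-0.75). KMT2E, SETD5 and the other members of the family had age and sex level ratios within 0.5.

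Over the 18 methyltransferases the median age ratio was -0.08 for half-life and 0.13 for synthesis. These became 0.01 and 0.05 relative to all genes, so the half-life direction flipped. The median sex ratio of the level was -0.16, and 0.08 against genes of like half-life.

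The demethylases include the flavin-dependent KDM1 enzymes and the iron-dependent Jumonji enzymes. KDM1A, the LSD1 enzyme of the CoREST complex, was the longest-lived of the 15, at 3.70 h in young female and 3.07 h in old cells and 3.70 h in young female and 5.57 h in male cells. Synthesis stood at 696 and 703 a.u. in the age table and 665 and 411 a.u. in the sex table. Higher half-life and lower synthesis in male cells left a level ratio of -0.10. KDM1B had synthesis rates of 349 a.u. in young female and 578 a.u. in old cells, a ratio of 0.73, and its implied level ratio was 0.51.

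KDM7A, which acts on methylated lysines of histone H3, had the lowest sex ratio of synthesis among the 80. Synthesis of KDM7A was 559 a.u. in young female and 509 a.u. in old cells, and 532 a.u. in young female and 229 a.u. in male cells (-1.22). Its half-life was 1.09, 1.16, 1.10 and 1.35 h in the same order, and the level ratio in male cells was -0.93. KDM3B, a demethylase of lysine 9 of histone H3, had synthesis rates of 1124 a.u. in young female and 535 a.u. in male cells (-1.07), with half-lives of 1.43 and 1.91 h. For both genes the male value was less than 0.5 times the female one in synthesis but not in level.

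Hypoxia-responsive KDM3A, the shortest-lived demethylase in young female and old cells, had half-lives of 1.03 h and 0.947 h there and 0.996 h in male cells, and level ratios of 0.14 for age and -0.59 for sex. KDM4C, which removes methyl groups from lysines 9 and 36 of histone H3, had level ratios of -0.31 for age and -0.69 for sex. Its relative KDM4B was the 1 demethylase of 15 with a higher implied level in male cells, at 0.27, with synthesis rates of 899 a.u. in young female and 1290 a.u. in male cells. The inducible lysine 27 demethylase KDM6B had half-lives of 1.23 h in young female and 1.09 h in old cells, and 1.22 h in young female and 0.966 h in male cells. Its level ratios were -0.04 for age and -0.05 for sex.

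The implied level was thus lower in male cells for 14 of 15 demethylases, with a median of -0.30, where 50.5% of all genes were higher. Against genes of like half-life 10 of 15 were lower, with a median of -0.07. Their median age ratios were -0.11 for half-life, 0.13 for synthesis and -0.01 for level, and synthesis flipped to -0.03 against genes of like half-life.

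Acetyltransferase transcripts were short-lived except that of KAT2B, the PCAF enzyme, at 6.19 h in young female, 5.54 h in old and 8.45 h in male cells. KAT6A, the MOZ enzyme, was the shortest-lived of the 7 in young female and old cells, with 1.00 h and 1.04 h. Its synthesis rate was 1828 and 1960 a.u. in the age table and 1744 a.u. in young female and 998 a.u. in male cells (-0.80), with a level ratio of -0.52 in male cells. Its paralogue KAT6B had a synthesis ratio of -0.10, a half-life ratio of -0.32 and a level ratio of -0.42 in male cells. With the young female estimate of the age table these were -0.26 for synthesis and -0.23 for half-life. KAT14, a subunit of the ATAC complex, had synthesis rates of 340 a.u. in young female and 255 a.u. in male cells and half-lives of 1.19 and 1.03 h. Both ratios had the same sign, giving a level ratio of -0.63.

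KAT5, the TIP60 enzyme of DNA repair and transcription, differed little between the sexes, while its age ratio of synthesis, 0.17, was at the median of the 80 genes. Its half-life was 1.78, 1.70, 1.78 and 1.77 h in young female, old, young female and male cells, and its synthesis rate was 1456, 1635, 1392 and 1433 a.u. The median sex ratios of the 7 acetyltransferases were 0.27 for half-life and -0.41 for synthesis, which became 0.00 and -0.13 relative to all genes.

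The HDAC enzymes fall into classes that differed in half-life. Class I enzymes, most of them catalytic subunits of nuclear repressor complexes, had a median of 10.1 h in young female, 7.45 h in old and 19.5 h in male cells. Class IIa enzymes, which shuttle between nucleus and cytoplasm, had medians of 2.72, 2.84 and 3.06 h. The remaining HDAC6, HDAC10 and HDAC11 had medians of 14.2, 11.8 and 12.6 h. The class IIa transcripts were therefore the short-lived part of the family in each group.

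HDAC1 had half-lives of 15.2 h in young female and 13.7 h in old cells, and 15.2 h in young female and 25.8 h in male cells, a sex ratio of 0.76. HDAC1 synthesis was at 362 and 381 a.u. in the age table and 345 and 227 a.u. in the sex table (-0.61). HDAC2, its partner in NuRD and Sin3, had half-lives of 8.54, 6.62, 8.52 and 13.7 h, sex ratios of 0.68 for half-life and -0.72 for synthesis, and a level ratio of -0.04. HDAC3, of the NCoR complex, had half-lives of 4.69, 4.40, 4.69 and 6.19 h. Its ratios had the same signs as those of HDAC1 and HDAC2 in male cells but were smaller, 0.40 and -0.24.

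HDAC8, a class I enzyme that also deacetylates cohesin, had the largest half-life ratio in male cells within the sex table. With the young female estimate of the age table HDAC8 was at 1.11 and SIRT5 at 1.12. HDAC8 half-life was 11.7 h in young female and 8.28 h in old cells, and 10.5 h in young female and 25.3 h in male cells (1.27). The synthesis rate was 27.4 and 38.7 a.u. in the age table and 29.1 and 12.5 a.u. in the sex table (-1.21). Both nearly cancelled, with level ratios of 0.00 for age and 0.05 for sex. Its male half-life exceeded the range of 1 to 24 h used as an alternative setting, as did those of HDAC1 and SETD9. HDAC8 and SIRT5 also fell outside the upper 75% of genes by synthesis, a filter on unscaled values.

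All 4 class I transcripts were longer-lived in male cells, with a median ratio of 0.72, of 0.45 relative to all genes and of 0.31 against genes of like half-life, and 4 of 4 kept that direction in both. Of all genes, 62.6% were longer-lived there with lower synthesis and 14.6% longer-lived with higher synthesis. In old cells 4 of 4 class I transcripts were shorter-lived, with a median of -0.26, where 36.5% of all genes were longer-lived. Relative to all genes the class I median was -0.17. The direction was kept by 4 of 4 in both settings, but HDAC3 was only at -0.008 and -0.011. The median level ratios were 0.10 for sex and -0.12 for age, the former -0.14 against genes of like half-life. The plot of deacetylase half-lives shows both directions.

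**Figure D3:**
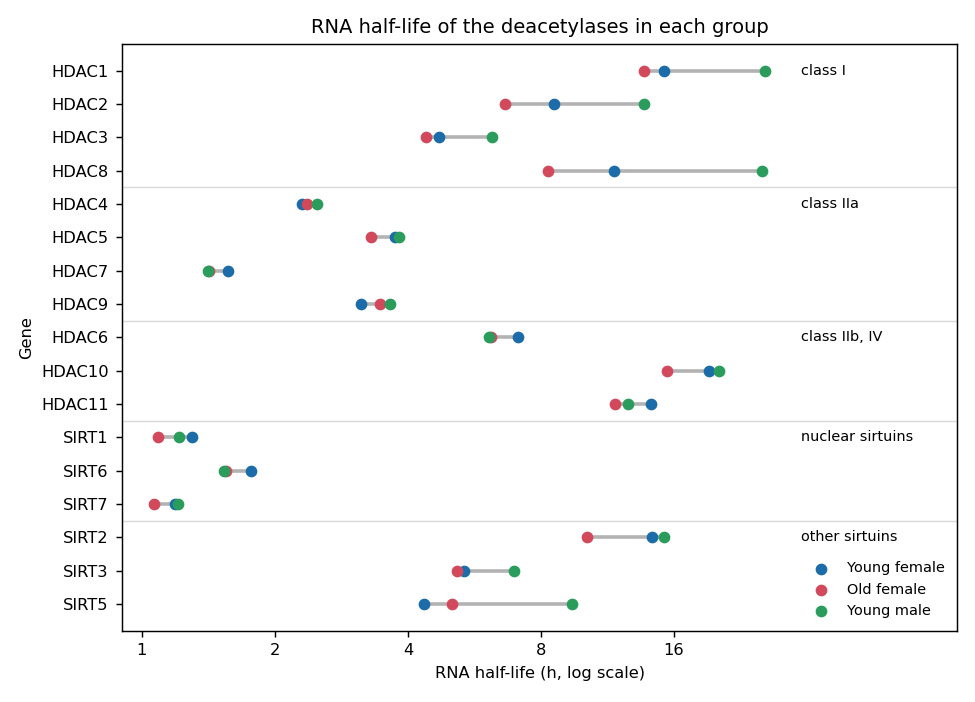
Half-life in hours (log axis) of the 17 HDAC and SIRT transcripts in young female (age table), old female and young male cells, each point the authors' single value for a group and each line the span of the 3 values. HDAC1, HDAC2, HDAC3 and HDAC8 lie higher in male and lower in old than in young female cells, and SIRT5 is at 9.41 h in male and 4.34 h in young female cells.

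In class IIa, HDAC4, the repressor of chondrocyte hypertrophy, hardly differed: its half-life was 2.31 h in young female and 2.37 h in old cells, with a sex ratio of 0.13, and its synthesis rate was 287, 298, 277 and 265 a.u. in young female, old, young female and male cells. HDAC7 had the shortest half-life of the family, 1.57 h in young female cells, and its synthesis rate was 365 a.u. in young female and 579 a.u. in old cells (0.66). Its level ratio of 0.52 was among the 3 highest for age. HDAC9 had the lowest age ratio of synthesis among the 80, -0.32 (132 to 105 a.u.), and a sex ratio of -0.95 (124 to 64.1 a.u.), with a level ratio of -0.76 in male cells. HDAC5 was 2.39 times and HDAC9 2.00 times as long-lived as HDAC7 in young female cells, and 2.70 and 2.57 times in male cells.

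HDAC10, a polyamine deacetylase, was the longest-lived of the 80 in young female cells at 19.2 h, with 15.5 h in old and 20.2 h in male cells. In synthesis it stood at 50.2 a.u. in young female and 78.0 a.u. in male cells (0.64), and its level ratio of 0.71 was the highest for sex. HDAC11 synthesis was 14.3 a.u. in young female and 22.0 a.u. in old cells (0.62), with half-lives of 14.2 and 11.8 h. Over the 11 HDAC genes the median level ratio in male cells was 0.15. The implied level was higher for 9, where 50.5% of all genes were higher. Against genes of like half-life it was higher for 6, with a median of 0.14.

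Sirtuins are deacylases that depend on NAD. The nuclear SIRT1, SIRT6 and SIRT7 had a median half-life of 1.30 h in young female, 1.09 h in old and 1.21 h in male cells, whereas SIRT2, SIRT3 and SIRT5, which act mainly in cytoplasm or mitochondria, had 5.36, 5.16 and 9.41 h. SIRT1 had synthesis rates of 427 a.u. in young female and 610 a.u. in old cells (0.52), and 391 a.u. in young female and 309 a.u. in male cells (-0.34). Its half-life was 1.30 and 1.09 h in the age table and 1.35 and 1.21 h in the sex table, and its level ratios were 0.26 and -0.50. SIRT1 was thus higher in level in old and lower in male than in young female cells.

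SIRT2, the tubulin deacetylase, had half-lives of 14.2 h in young female and 10.2 h in old cells (-0.49) and synthesis rates of 98.8 and 163 a.u. (0.72). It was 2.66 times as long-lived as SIRT3 in young female and 1.97 times in old cells. SIRT5, a mitochondrial desuccinylase, had half-lives of 4.34 h in young female and 5.04 h in old cells, and 4.58 h in young female and 9.41 h in male cells (1.04). SIRT5 synthesis was 21.3 a.u. in young female and 14.7 a.u. in male cells (-0.53), leaving a level ratio of 0.51. SIRT7, of the nucleolus, had the shortest half-life of the 6, 1.19 h in young female and 1.07 h in old cells.

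All 6 sirtuins had a higher synthesis rate and a higher implied level in old cells, with medians of 0.28 and 0.21, and 6 of 6 did so relative to all genes and against genes of like half-life as well. Over all genes 60.2% were higher in synthesis and 50.7% in level. In male cells the median level ratio was 0.23, with 4 of 6 higher. Against genes of like half-life the ratios were -0.19 (SIRT1), -0.05 (SIRT7), 0.03 (SIRT3), 0.09 (SIRT2), 0.40 (SIRT5) and 0.54 (SIRT6). Of all genes, 50.5% were higher in level in male cells. Each single age ratio of level was below 0.5, from SIRT6 at 0.03, which is less than the move of its young female estimate between tables, to SIRT5 at 0.41.

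Among the bromodomain readers, BRD2 and BRD3 bind acetylated histones at active genes. BRD2 had half-lives of 1.50 h in young female and 1.25 h in old cells. BRD2 had level ratios of -0.15 for age and -0.40 for sex, and BRD3 of 0.48 and 0.14. BRD3 synthesis was 1444 a.u. in young female and 2029 a.u. in old cells.

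BRD7 and BRD9, subunits of different SWI/SNF remodelling complexes, were the long-lived readers. BRD7 had 6.42 h in young female, 7.27 h in old and 9.11 h in male cells, and BRD9 had 5.87, 6.84 and 8.71 h. Both were longer-lived and had lower synthesis in old and in male cells alike, and both directions were kept relative to all genes and against genes of like half-life. BRD8, a subunit of the TIP60 complex, was the shortest-lived reader in young female and old cells, at 0.993 h and 0.968 h. Its synthesis rate was 1202 and 1350 a.u. in the age table and 1130 a.u. in young female and 550 a.u. in male cells (-1.04), with a level ratio of -0.76. BRD10 had half-lives of 2.21 h in young female and 3.67 h in male cells (0.73), and synthesis ratio -0.80. All 8 readers were longer-lived in male cells (median 0.20), but 4 of 8 were so relative to all genes and 4 of 8 against genes of like half-life. Of all genes, 62.6% were longer-lived there with lower synthesis and 14.6% longer-lived with higher synthesis.

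The CHD remodellers were short-lived apart from those of the NuRD repressor complex. CHD3 had half-lives of 15.8 h in young female, 16.1 h in old and 21.4 h in male cells. CHD4, which takes the same place in NuRD, had 3.89 h in young female, 3.32 h in old and 4.08 h in male cells, so that CHD3 was 4.06, 4.86 and 5.26 times as long-lived. CHD5 was 3.31 h in the age table and 4.57 h in the sex table for young female cells, so that CHD3 was 4.76 times as long-lived in the first and 3.44 times in the second. CHD5 had the second-highest age ratio of level, 0.52, but its age ratio of synthesis, 0.48, was no larger than the move of its young female synthesis estimate between tables, 0.53. CHD4 synthesis was 2733 a.u. in young female and 3241 a.u. in old cells, with a level ratio of 0.02.

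CHD7, which opens chromatin in skeletal and neural crest development, had synthesis rates of 1252 a.u. in young female and 1418 a.u. in old cells, and 1201 a.u. in young female and 611 a.u. in male cells (-0.97). With half-lives of 1.50, 1.32, 1.50 and 1.62 h, its level ratio in male cells was -0.86, second to KDM7A. CHD2, a remodeller at active genes, had synthesis rates of 1356 a.u. in young female and 2014 a.u. in old cells (0.57), and its half-life was 1.41 and 1.24 h. CHD8 was the shortest-lived of the 9 in young female and old cells, at 1.22 h and 1.00 h.

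All 9 CHD genes had a higher synthesis rate in old cells, with a median of 0.25, where 60.2% of all genes were higher. This held for 9 of 9 relative to all genes and for 8 of 9 against genes of like half-life. In male cells synthesis was lower for 8 of 9, with a median of -0.32, which was 0.02 against genes of like half-life. Over all genes a lower rate came with a longer half-life for 62.6% and with a shorter one for 8.33%. CHD6, CHD7, CHD8 and CHD9 were lower in implied level in male cells in 4 of 4 cases, and in 2 of 4 against genes of like half-life. Of all genes, 50.5% were higher in level there. The plot of level ratios by family sets these values side by side.

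**Figure D4:**
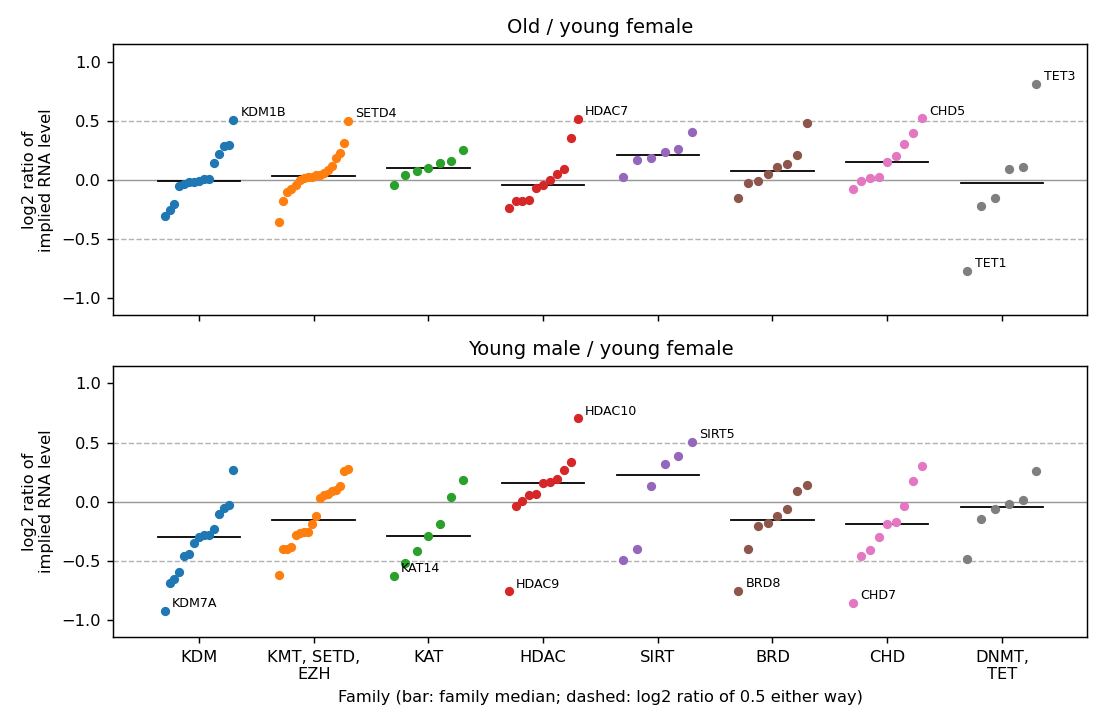
Log2 ratio of the implied level of each of the 80 genes by family, for old over young female (top) and young male over young female cells (bottom), each point 1 gene and each bar a family median, with dashed lines at 0.5 in either direction. All 6 sirtuins lie above 0 in the top plot and 14 of 15 demethylases lie below 0 in the bottom plot.

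The DNA methyltransferases and TET dioxygenases included the largest age differences of the 80. TET3, which oxidises methylcytosine, had a synthesis rate of 402 a.u. in young female and 1038 a.u. in old cells (1.37), and 371 a.u. in young female and 361 a.u. in male cells (-0.04). Its half-life was 1.26 and 0.860 h in the age table (-0.56) and 1.31 and 1.36 h in the sex table. The implied level was higher in old cells by 0.81, the highest age ratio of level. TET3 was thus higher in old cells, though not 2-fold in level, and nearly equal in both sexes. Its old half-life lay below 1 h, outside the range of 1 to 24 h used as an alternative setting. How well synthesis and half-life are told apart so far below the 4 h of labelling was not tested.

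TET1 had half-lives of 1.58 h in young female and 0.853 h in old cells (-0.89), and 1.73 h in young female and 1.13 h in male cells (-0.62). These were the lowest half-life ratios of both comparisons. TET1 synthesis was 213 and 233 a.u. in the age table and 187 and 258 a.u. in the sex table, and its level ratios were -0.77 and -0.15. With the young female estimate of the other table, the age ratio of half-life was -1.02. TET2 had the shortest young female half-life of the 80, 0.868 h, with 0.796 h in old and 0.923 h in male cells. TET2 synthesis was 3705 a.u. in young female and 3635 a.u. in old cells, and 3507 a.u. in young female and 2369 a.u. in male cells.

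DNMT1, which copies methylation onto new DNA strands, was long-lived, at 11.1 h in young female, 13.4 h in old and 12.3 h in male cells. Its age ratio of half-life, 0.27, was the highest of the 80, and its level ratios were 0.09 for age and 0.26 for sex. Of the enzymes that set new methylation, DNMT3A had half-lives of 1.68 h in young female, 1.37 h in old and 1.42 h in male cells, and DNMT3B had 5.88, 4.70 and 8.58 h. DNMT3B was thus 3.49 times as long-lived as DNMT3A in young female, 3.44 times in old and 6.04 times in male cells. DNMT3B synthesis was 210 a.u. in young female and 140 a.u. in male cells (-0.59), and its level ratios were 0.10 for age and -0.02 for sex.

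Over these 6 genes, 5 were shorter-lived in old cells, DNMT1 being the longer-lived one, where 36.5% of all genes were longer-lived. The median ratio of the 6 was -0.31, -0.23 relative to all genes and -0.21 against genes of like half-life (4 of 6 shorter). The median level ratio was -0.03 for age, with TET3 and TET1 at opposite ends, and -0.04 for sex, which was 0.08 against genes of like half-life.

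Of 40 pairs of close relatives with both genes listed, 7 were at least 2-fold apart in young female half-life in the age table. In the second young female estimate HDAC9 and HDAC7 were 1.96-fold apart and the other 6 passed. They were CHD3 and CHD5, CHD3 and CHD4, DNMT3B and DNMT3A, SIRT2 and SIRT3, HDAC5 and HDAC7, SETD1A and SETD1B, and HDAC9 and HDAC7. In old cells 6 of the 7 kept the gap at 2-fold or more, and in male cells 7 of 7. Among the other pairs, HDAC1 and HDAC2 were 2.07-fold apart in old cells and KDM1A and KDM1B 2.65-fold in male cells.

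The X-linked genes among the 80 were KDM6A, HDAC6 and HDAC8, by symbol in the RefSeq table of the horse assembly TB-T2T. KDM6A, which removes methyl groups from lysine 27 of histone H3 and escapes X inactivation in several mammals, had synthesis rates of 458 a.u. in young female and 347 a.u. in male cells (-0.40) and half-lives of 1.56 and 1.70 h. Its level ratio was -0.28, the median of the demethylases being -0.30. HDAC6, a cytoplasmic tubulin deacetylase, had synthesis rates of 112 a.u. in young female and 163 a.u. in male cells (0.55) and half-lives of 7.09 and 6.11 h, with a level ratio of 0.33. The 3 X-linked genes therefore had level ratios of both signs in male cells, with HDAC8 alone near 0, at 0.05.

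Partner proteins of the same complexes, taken from lists by name, were also looked up. Of 9 PRC2 partners, 9 had a lower synthesis rate in male cells, with a median of -0.66, where 28.9% of all genes had a higher rate and the all-gene median was -0.28. After subtraction of that median 6 of 9 were lower, with a median of -0.38. EED (-1.63) and SUZ12 (-1.33), the core subunits beside EZH enzymes, reached 2-fold, beside 8.37% of all genes. EED also reached it in level, at -1.06. In age the PRC2 list had 0 of 9 past 2-fold in synthesis, beside 4.59% higher and 2.92% lower over all genes.

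For the lists that follow, the shares of all genes past 2-fold were in old cells 4.59% higher and 2.92% lower in synthesis and 2.13% higher and 1.99% lower in level. In male cells they were 3.78% and 8.37% in synthesis, 3.00% and 1.61% in level and 5.62% and 1.96% in half-life. Of 12 COMPASS partners of the KMT2 enzymes, HCFC2 alone reached 2-fold, with a synthesis ratio of -1.11 in male cells. Of 21 HDAC complex partners, MTA3, a NuRD subunit, had a synthesis ratio of 1.23 and a level ratio of 0.76 in old cells. Of 24 acetyltransferases and partners, BRPF1 and ING4 passed 2-fold in synthesis in old cells, at 3.58 and -4.66. The half-life of BRPF1 was 0.954 h in young female and 0.0849 h in old cells and that of ING4 was 0.0281 and 0.752 h, so that each synthesis ratio goes with an extreme half-life in 1 group. Their level ratios were 0.09 and 0.08. The ING4 value rests on a young female estimate that was not stable: 12358 a.u. in the age table, with the half-life above, against 422 a.u. and 0.814 h in the sex table, with 487 a.u. in old cells. With the second estimate ING4 would not reach 2-fold, and its direction would be reversed. ING2 and ING3, subunits of deacetylase and acetyltransferase complexes, had synthesis ratios of 5.72 and 5.38 in male cells, with half-lives of 0.0217 and 0.0156 h there, and level ratios of -0.13 and -0.72. As for BRPF1 and ING4, each of these synthesis ratios goes with an extreme half-life in 1 group, far below the 4 h of labelling. They are not read as differences in synthesis. ING4 had a male synthesis ratio of -1.20.

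Among 13 partners in DNA methylation, UHRF1, which brings DNMT1 to replicating DNA, had ratios of -2.21 for synthesis and -1.71 for level in old cells, and a level ratio of 1.58 in male cells. DNMT1 itself had level ratios of 0.09 and 0.26. Of the repair factors of demethylation, TDG (-1.21), GADD45A (-1.17) and GADD45G (-1.04) had lower synthesis in male cells, GADD45A also in level (-1.13), and GADD45G had lower synthesis in old cells (-1.05). Among 25 bromodomain and remodelling proteins under other names, SP110, SP140 and SP100, which are interferon-responsive, had synthesis ratios of -1.48, -1.18 and -1.12 in male cells. ATAD2, a bromodomain protein of dividing cells, had a level ratio of -1.33 in old cells. Of 30 methyltransferases and demethylases under other names, NSD2 and SUV39H2 were longer-lived in male cells by 1.28 and 1.10, and SUV39H2 (-1.36) and NSD3 (-1.03) had lower synthesis there. After subtraction of the all-gene median, 4 of the partner genes named for lower synthesis in male cells stayed past 2-fold, EED, SUZ12, SUV39H2 and SP110, and NSD2 alone did in longer half-life.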

How the data were processed

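Wild-type horse chondrocytes were labelled with 4sU for 4 h. RNA was alkylated with iodoacetamide for 15 min, and poly(A)-selected, strand-specific libraries were made, per the labels' protocols. Cutadapt 4.5, STAR 2.5.3 and the build EquCab3.0 are named in the submitters' processing notes. The annotation, kinetic model, gene filter and way of combining replicates were not given in the sources used here. The deposited tables hold a synthesis rate (a signal in arbitrary units) and a half-life (another unit, read as hours) for each gene and group, per the file headers. The unit was read from the labelling time, the medians near 4 h and the ceiling of 69.3 h, reached by 0 of the 80 genes. The column for young cells was read as young female from the labels.

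Log2 ratios within each table, implied levels, medians and counts were computed in Python 3.11.15 with pandas 2.3.3, NumPy 2.4.6 and SciPy 1.17.1, with figures in Matplotlib 3.10.9. The scripts were tested on simulated data. The planned limma test needs values per sample, so no test was made. The genes, gene lists and subclasses were chosen with earlier results of these data known. KDM5D was left out by the rule. Named genes were those past 2-fold, the 3 highest and lowest ratios per measure among half-lives of 1 to 24 h, the extremes of each family, X-linked genes, relatives at least 2-fold apart and the best known of each family. The extremes of synthesis are not ranked, since length scaling is unknown. Of the partner lists, those past 2-fold were named, up to 4 a list. One gene of the best-known set is not reported here.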

Additional observations from a re-analysis of the deposited data

How the results depend on the processing

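With 1 value per gene and group, depth and replicate spread are unknown, leaving out single replicates could not be run. No paired analysis was possible because the tables hold no values per replicate. The 2-fold call of TET3 in old cells held in each alternative run for it as a single gene (1.24 to 1.49). The male calls of HDAC8 (half-life 0.99, synthesis -0.93), SIRT5 (0.77), BRD8 (-0.76), KDM3B (-0.79) and KDM7A (-0.94) were lost after centring on all genes.

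At a log2 ratio of 0.5 in place of 1, the age counts were 2 of 80 for half-life (0 at 1), 9 for synthesis (1 at 1) and 6 for level (0 at 1), and the sex counts were 12 (2 at 1), 30 (4 at 1) and 12 (0 at 1). With half-lives limited to 1 to 24 h the age synthesis count was 0, since TET3 dropped out, and the sex half-life count was 1. With the upper 75% of genes by synthesis the sex half-life count was 0. Taking the young female value from the table not otherwise used for a comparison, the age counts were 1 for half-life (TET1, -1.02) and 2 for synthesis (CHD5, 1.01). The sex counts were then 2 for half-life and 6 for synthesis, with CHD7 (-1.04, from -0.97) and HDAC9 (-1.04, from -0.95) added. Such a swap also carries the shift in synthesis between the young female estimates, a median of 0.953 times. After centring on all genes the sex counts were 0 for half-life and 0 for synthesis; the median half-life ratio was -0.20 instead of 0.07 and the median synthesis ratio -0.067 instead of -0.35. Centring within half-life deciles gave sex counts of 0 for half-life and 2 for synthesis, an alternative added for the counts after the data were seen. For the medians it was planned, and it gave sex medians of -0.017, 0.018 and 0.0061 for half-life, synthesis and level, and age medians of -0.0061 for half-life and 0.050 for synthesis. The median young female synthesis rate was 897 a.u., 803 a.u. within 1 to 24 h and 1030 a.u. in the upper 75%. Apart from centring, no alternative changed the sign of a median.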

Other observations

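EZH2, the main catalytic subunit of PRC2 in dividing cells, was listed only in the table of male and female cells. Its half-life was 3.00 h in young female and 4.69 h in male cells, a log2 ratio of 0.64, and its synthesis rate was 29.2 and 18.5 a.u., a ratio of -0.66. The implied level ratio was -0.02. The PRC2 partners EED and SUZ12 had half-life ratios of 0.57 and 0.76 and synthesis ratios of -1.63 and -1.33 in the same comparison, with level ratios of -1.06 and -0.57.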
